A study of Mus musculus with 14 samples.

Results

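The genes described here encode RNA polymerase II and the general transcription factors that bring it to promoters. They were 30 genes chosen by name, out of 22827 genes in the RNA-seq tables. Of these, 12 encode the subunits of the polymerase, 7 of them its own and 5 shared with RNA polymerases I and III. The other 18 genes encode general factors, with 3 for TFIIA, 1 for TFIIB, 2 for TFIIE, 2 for TFIIF and 10 for TFIIH. All 30 were found, 28 through their RefSeq accession and 2, *Polr2a* and *Polr2d*, through their position. *Gtf2a1l*, the germ-cell relative of *Gtf2a1*, was not above 1 FPKM in any library, and the other 29 were above 1 FPKM in every library.

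RNA polymerase II makes the messenger RNA of the cell and cannot find a gene's start by itself. TFIID, which contains the TATA-binding protein TBP and its associated factors (TAFs), recognises the promoter. TFIIA and TFIIB then stabilise it there, TFIIF arrives with the polymerase, and TFIIE and TFIIH complete the preinitiation complex. TFIIH opens the DNA and its kinase phosphorylates the tail of the largest polymerase subunit, after which the polymerase leaves the promoter. TAF9B is a relative of the TFIID subunit TAF9, and TFIID subunits are known to become scarce in some differentiated tissues.

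The study differentiated mouse embryonic stem (ES) cells into embryoid bodies (EBs) enriched in motor neurons with retinoic acid and the smoothened agonist SAG, and sequenced poly-A RNA from ES cells and from EBs at days 2, 4 and 6. At each of these 4 points there was 1 library labelled WT, from the JM8 clone, and 1 labelled TAF9B -/- (KO), from the Taf9b_BG10 clone, so that each genotype was a single clone. Newborn lumbar spinal column tissue of WT and KO littermates gave 1 library each, and newborn WT spinal cord gave 1 more. TAF9B and RNA POL2 ChIP-seq peaks came from WT motor neuron EBs of the HBG3 clone, which carries a GFP reporter under the *Mnx1* promoter and was differentiated for longer than the RNA-seq EBs. All samples are labelled C57BL/6. The KO allele lacks the coding exons of the X-linked *Taf9b* gene and carries LacZ-Neo in their place. The JM8 and KO ES cells were grown on a layer of inactivated mouse embryonic fibroblasts. The tissue samples carry the same clone names as the cultures in their labels, although they came from mice.

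Levels are FPKM, a count of sequenced fragments that the authors corrected for transcript length and for library size. No group had a replicate and each genotype was 1 clone, so no test was made and no difference below has an error, and the read depth behind each value is unknown. *Taf9b*, read over its whole locus with no record of which exons held the reads, did not follow the culture labels: it was at 0.537 FPKM in the ES library labelled WT and 3.06 FPKM in the one labelled KO, and was also higher in the library labelled KO at days 2, 4 and 6 (4.08, 4.27 and 4.01 FPKM against 0.516, 1.96 and 1.37 FPKM). In spinal column it was lower in the library labelled KO (3.31 against 6.65 FPKM). Other genes differed widely between the same cultures at day 6, where 5 motor neuron markers summed to 43.3 FPKM in the library labelled WT and 2.86 FPKM in the one labelled KO. Whether the culture libraries were exchanged was not tested, and directions between WT and KO below are given as labelled. The summed level of 6 pluripotency markers was 1519.9 FPKM in ES WT and 8.67 FPKM in spinal cord, where the neuron markers summed to 1815 FPKM. In ES WT and spinal cord the fibroblast markers summed to 357 and 254 FPKM, and the red blood cell markers to 0.489 and 1910 FPKM. Spinal column also held muscle, with the troponin gene *Tnnt3* at 2927 and 4489 FPKM in the libraries labelled WT and KO. The tables were normalized separately, and the ES WT library, which is in 2 of them, was 1.09 times higher in the table it shares with spinal cord. That table's value was used for comparisons with spinal cord, whereas sentences that give every library take ES WT from the table it shares with ES KO.

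In the sentences that give every library, the library labelled WT comes first in each pair and the one labelled KO second. *Polr2f*, a small subunit shared by all 3 polymerases, was the highest Pol II subunit in every library. *Polr2f* was at 266 and 264 FPKM in ES cells, 245 and 283 at day 2, 267 and 194 at day 4, 391 and 377 at day 6, 97.9 and 190.1 in spinal column and 161 in spinal cord. The lowest subunit differed between libraries, and the ratio of the highest to the lowest was 5.27 in ES WT, 4.76 in EB day 4 WT, 8.99 in EB day 6 WT and 11.2 in spinal cord. These levels are per length of transcript and measure RNA, not the assembled enzyme. In the table that ES WT shares with spinal cord, the ES WT median was 80.8 FPKM over the Pol II subunits and 31.8 FPKM over the general factors, and the spinal cord medians were 29.5 and 8.60 FPKM. Together the 30 genes made up 0.296% of the summed FPKM of all loci in ES WT and 0.199% in spinal cord. The heat map of levels by library shows the change between cultures and tissues.

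**Figure D1:**
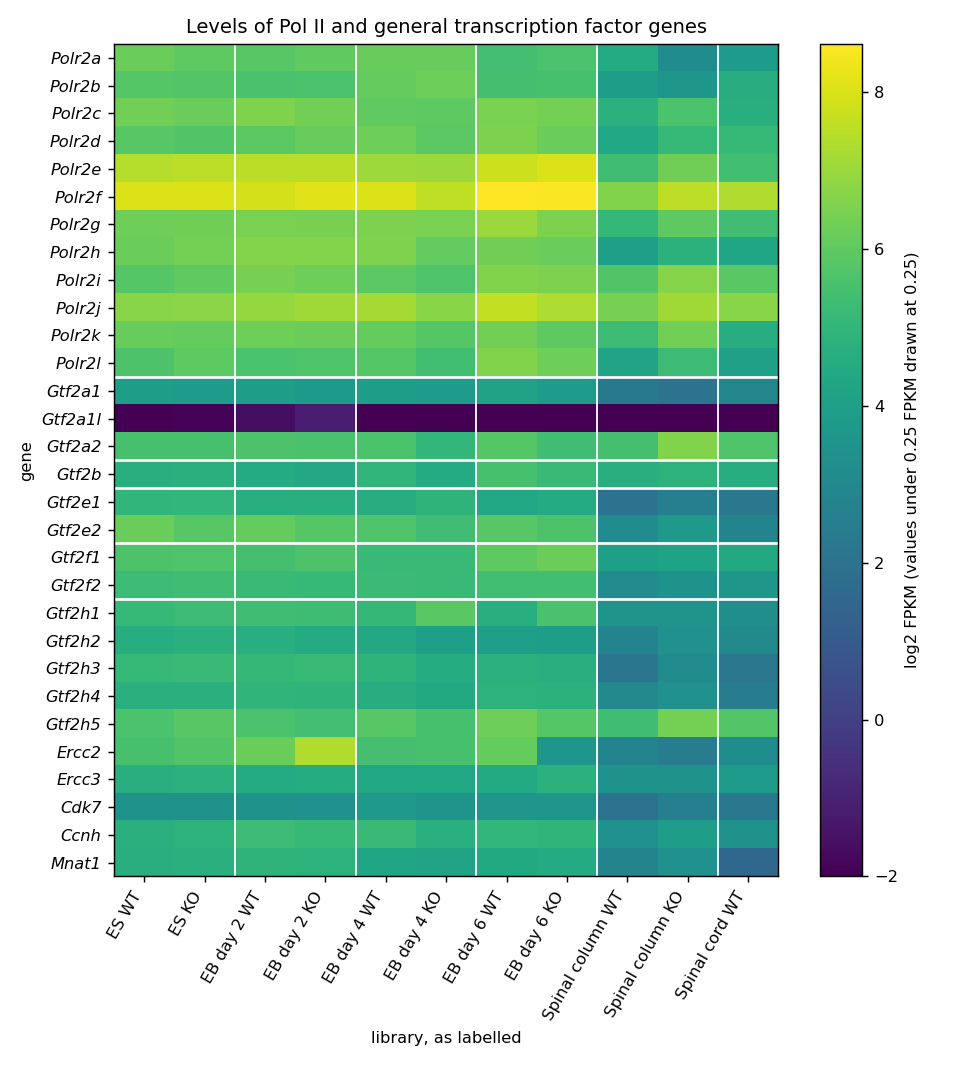
Each row is 1 of the 30 genes and each column 1 library as labelled, with the colour giving log2 FPKM. The 8 culture libraries on the left look alike for most genes, the 3 tissue libraries on the right are darker, and *Ercc2* stands out at day 2 and day 6 in the columns labelled KO.

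Newborn spinal cord was compared with ES cells to ask how far the machinery differed between proliferating stem cells and differentiated tissue. Of the 29 expressed members, 21 were more than 2-fold lower in spinal cord, and 0 were more than 2-fold higher. Among all 14302 expressed genes, 35.8% were more than 2-fold lower and 30.4% more than 2-fold higher. The members were also abundant genes, since all 29 passed 10 FPKM in spinal cord or ES cells, and of the 8494 genes that passed this limit 41.8% were more than 2-fold lower. The median log2 ratio was -1.67 over the members, -0.27 over all expressed genes and -0.59 over those above 10 FPKM. The summed FPKM of the spinal cord library was 0.646 times that of ES cells, and with both scaled to the same sum 15 members and 24.6% of all expressed genes were more than 2-fold lower. That scaling raises each log2 ratio by 0.63, so a ratio near 0 below, on the deposited scale, becomes positive, as for *Polr2i* (0.59), *Polr2j* (0.51), *Gtf2a2* (0.67), *Gtf2b* (0.44) and *Gtf2h5* (0.66). Proliferation markers summed to 1347 FPKM in ES cells and 69.7 FPKM in spinal cord, and their part in the result was not tested. In bulk tissue, fewer cells of a type and less RNA per cell cannot be told apart.

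Among the polymerase's own subunits, *Polr2a*, which encodes the largest subunit with the catalytic centre and the phosphorylated tail, had the lowest ratio in spinal cord over ES. *Polr2a* was at 73.9 and 63.2 FPKM in ES cells, 57.5 and 64.9 at day 2, 71.1 and 71.4 at day 4, 43.5 and 48.6 at day 6, 23.2 and 9.02 in spinal column and 14.4 in spinal cord. Its log2 ratio in spinal cord over ES was -2.49, which is 5.60-fold lower. *Polr2b*, for the second largest subunit, which forms the active centre together with it, had a log2 ratio of -1.34, and the *Polr2a* to *Polr2b* ratio was 1.32 in ES cells and 0.597 in spinal cord. At the other end stood *Polr2i*, a small subunit near the jaw of the enzyme, with a log2 ratio of -0.04. *Polr2i* was at 56.2 and 65.4 FPKM in ES cells, 87.4 and 77.3 at day 2, 61 and 51.8 at day 4, 96.7 and 91 at day 6, 53.5 and 101 in spinal column and 59.6 in spinal cord. Its FPKM in spinal cord was close to that in ES cells on the deposited scale alone, and the highest library was spinal column labelled KO. *Polr2j*, which pairs with *Polr2c* in the assembly platform of the enzyme, was similar, with a log2 ratio of -0.12, whereas its partner *Polr2c* had a ratio of -1.84. *Polr2j* was at 106 and 109.6 FPKM in ES cells, 121 and 136 at day 2, 144 and 104 at day 4, 196 and 159 at day 6, 87.4 and 137 in spinal column and 106 in spinal cord. The stalk subunits *Polr2d* and *Polr2g* lay between these, at log2 ratios of -0.90 and -1.03. The loci of *Polr2b*, *Polr2c*, *Polr2i* and *Polr2j* overlap protein-coding genes on the opposite strand (*Igfbp7*, *Dok4*, *Tbcb* and *Lrwd1*), and the counting is not stated to use strand, so the values of these 4 subunits are uncertain.

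All 5 subunits shared with the other polymerases had ratios below 0 in spinal cord over ES, 4 of them by more than 2-fold, while 54.8% of all expressed genes were below 0 and 35.8% past 2-fold lower. The lowest ratio was that of *Polr2e*, at -2.17 on the log2 scale. *Polr2e* was at 172 and 187 FPKM in ES cells, 182 and 183 at day 2, 133 and 128 at day 4, 224 and 268 at day 6, 41.5 and 80.3 in spinal column and 41.8 in spinal cord. *Polr2h* had a ratio of -2.11, *Polr2l* of -1.72 and *Polr2k* of -1.70, and the highest of the group was *Polr2f* at -0.85. *Polr2h* was at 74.4 and 83.8 FPKM in ES cells, 100.1 and 100.1 at day 2, 95.6 and 67.2 at day 4, 78.8 and 72.1 at day 6, 16.1 and 28 in spinal column and 18.7 in spinal cord. The ratio of *Polr2f* to *Polr2a* was 3.60 in ES cells and 11.2 in spinal cord, so the balance of subunit transcripts differed between the libraries. The Spearman correlation of the spinal cord over ES ratio with transcript length was -0.43 across the 29 members and 0.05 across 11987 genes, over genes of the same 2 libraries. After subtraction of the median of genes of similar length, the log2 ratio was -2.49 for *Polr2a* and -0.49 for *Polr2f*.

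Among the early-acting factors, TFIIB and the small subunit of TFIIA had the ratios nearest to 0 on the deposited scale, whereas with equal sums the nearest were *Gtf2b* at 0.44 and *Gtf2a1* at -0.57. *Gtf2b* encodes TFIIB, which bridges TBP and the polymerase and helps to set the start site, and its log2 ratio in spinal cord over ES was -0.19. *Gtf2b* was at 25.7 and 26.6 FPKM in ES cells, 22.8 and 21 at day 2, 31.4 and 23.4 at day 4, 46.3 and 37 at day 6, 25.5 and 29.3 in spinal column and 24.5 in spinal cord. *Gtf2a2*, the small TFIIA subunit, had a ratio of 0.03, and *Gtf2a1*, whose product is cut into the large and middle TFIIA subunits, had a ratio of -1.20. *Gtf2a1* was at 15.2 and 14 FPKM in ES cells, 15.4 and 13.9 at day 2, 14.9 and 14.1 at day 4, 17.5 and 14.5 at day 6, 4.86 and 4.07 in spinal column and 7.22 in spinal cord. *Gtf2a2* was at 46.2 and 46 FPKM in ES cells, 50.4 and 47.1 at day 2, 48.4 and 32.4 at day 4, 55.9 and 40.5 at day 6, 45.3 and 96.5 in spinal column and 51.5 in spinal cord. The *Gtf2a2* to *Gtf2a1* ratio was between 2.30 and 3.38 in the 8 culture libraries, 7.13 in spinal cord, and 9.32 and 23.7 in the spinal column libraries labelled WT and KO. Cuffdiff marked the spinal column row of *Gtf2a1* as failed, so these last 2 ratios are uncertain.

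TFIIE, which recruits TFIIH to the complex, had the lowest median log2 ratio of the complexes in spinal cord over ES, -3.22 over its 2 genes, although *Mnat1* (-3.27) and *Gtf2h3* (-3.03) of TFIIH were lower than its large subunit. *Gtf2e2*, its small subunit, was 12-fold lower in spinal cord (log2 ratio -3.58), the lowest of the 29 genes. *Gtf2e2* was at 75 and 57.2 FPKM in ES cells, 68 and 55.6 at day 2, 51.7 and 41.1 at day 4, 57.1 and 49.4 at day 6, 9.06 and 13 in spinal column and 6.81 in spinal cord. *Gtf2e1*, the large subunit, had a log2 ratio of -2.86. *Gtf2e1* was at 31.7 and 32.8 FPKM in ES cells, 25.3 and 25.9 at day 2, 24.4 and 30.1 at day 4, 20.7 and 23 at day 6, 4.09 and 5.91 in spinal column and 4.75 in spinal cord. In both genes the 3 tissue libraries were below all 8 culture libraries. TFIIF, which escorts the polymerase to the promoter and aids early elongation, was also more than 2-fold lower, with log2 ratios of -1.31 for *Gtf2f1* and -1.76 for *Gtf2f2*. So were 35.8% of all expressed genes. With equal sums the ratios were -0.68 and -1.13, so that *Gtf2f1* no longer passed 2-fold. *Gtf2f1* was at 49.8 and 51.1 FPKM in ES cells, 44.2 and 49.9 at day 2, 35.5 and 35.6 at day 4, 63.9 and 75.2 at day 6, 15.9 and 18.1 in spinal column and 21.9 in spinal cord. *Gtf2f2* was at 38.3 and 41.3 FPKM in ES cells, 35.9 and 34.8 at day 2, 37.8 and 37 at day 4, 42.5 and 42.6 at day 6, 8.6 and 11 in spinal column and 12.3 in spinal cord.

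TFIIH serves in both transcription and nucleotide excision repair, and 8 of its 10 genes were more than 2-fold lower in spinal cord, with a median log2 ratio of -1.80. Among all expressed genes 35.8% were lower. With equal sums this share was 24.6%, and *Cdk7* (-0.72) and *Ccnh* (-0.81) no longer passed 2-fold. In the core, the lowest was *Gtf2h3*, a structural subunit, at -3.03. *Gtf2h3* was at 34.7 and 37 FPKM in ES cells, 33.3 and 35.3 at day 2, 29.9 and 23.8 at day 4, 27.1 and 25.2 at day 6, 4.52 and 8.65 in spinal column and 4.63 in spinal cord. *Ercc2*, the XPD helicase used in repair, had a ratio of -2.51 and *Gtf2h4*, which regulates the XPB translocase, one of -2.33. *Ercc3*, the XPB translocase that opens the promoter, had a ratio of -0.99 and lay just inside the 2-fold limit. *Gtf2h5*, the smallest subunit, which stabilises the core, was the exception with a ratio of 0.02. *Gtf2h5* was at 48.8 and 58 FPKM in ES cells, 48.1 and 43.3 at day 2, 57.5 and 45.4 at day 4, 76.5 and 56.2 at day 6, 40.6 and 83.7 in spinal column and 54 in spinal cord. The *Gtf2h5* to *Gtf2h4* ratio was 1.85 in ES cells and 9.44 in spinal cord. Of the kinase module, *Mnat1*, which assembles the kinase with its cyclin, was 9.62-fold lower (log2 ratio -3.27), while *Cdk7*, the kinase, and *Ccnh*, its cyclin, had ratios of -1.35 and -1.44. *Mnat1* was at 26.1 and 26.7 FPKM in ES cells, 30 and 28.9 at day 2, 19.7 and 18.3 at day 4, 21.7 and 22.9 at day 6, 6.81 and 10.3 in spinal column and 2.95 in spinal cord. *Cdk7* was at 11 and 10.6 FPKM in ES cells, 10.8 and 10.5 at day 2, 13.4 and 11.2 at day 4, 11.6 and 12 at day 6, 3.98 and 6.01 in spinal column and 4.71 in spinal cord. *Mnat1* was therefore above *Cdk7* in ES cells, at 2.37 times its level, and below it in spinal cord, at 0.627 times its level. The *Ccnh* to *Cdk7* ratio was 2.42 and 2.28 in the same libraries. The bar plot of spinal cord over ES ratios orders the genes within each complex.

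**Figure D2:**
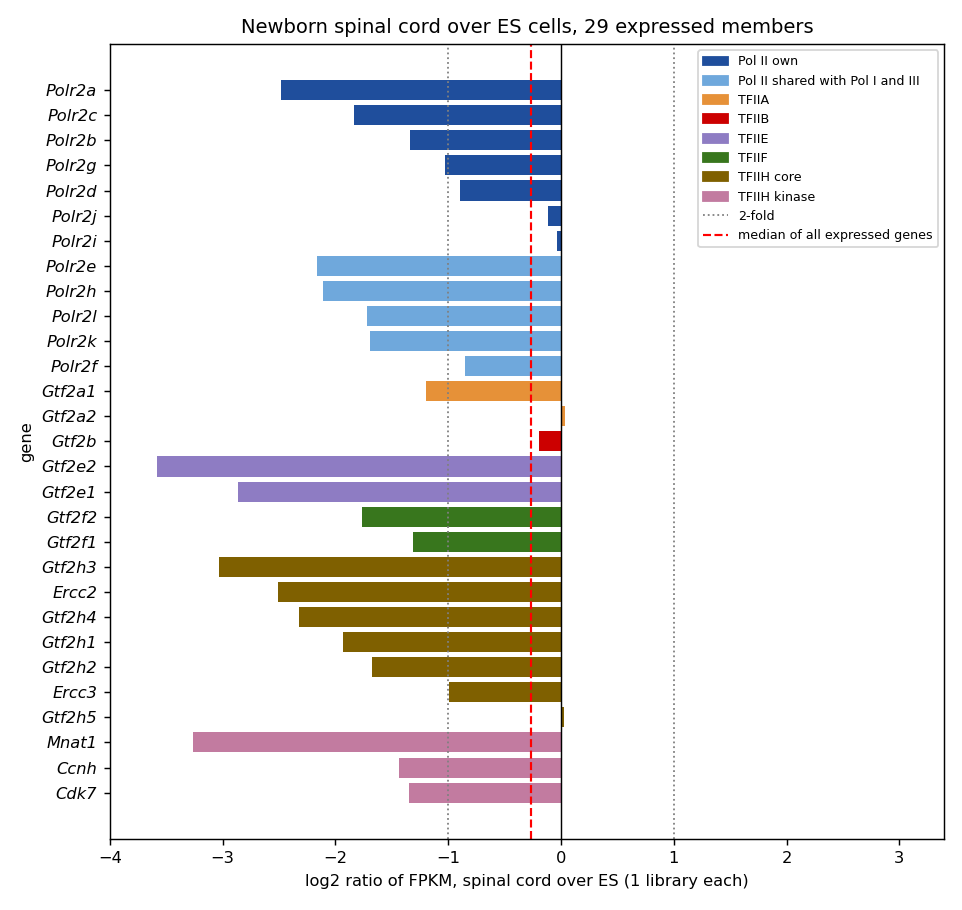
Bars give the log2 ratio of FPKM, newborn spinal cord over ES cells, 1 library each, for the 29 expressed genes, coloured by complex, with dotted lines at 2-fold and a dashed line at the median of all expressed genes (-0.27). Bars of 21 genes pass the lower dotted line, the longest being *Gtf2e2* at -3.58, and *Gtf2a2*, *Gtf2h5* and *Polr2i* end close to 0 on the deposited scale and lie above 0 with equal sums.

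Other parts of the transcription machinery were read in the same 2 libraries, from lists written with earlier results of these data known. Of 14 TFIID genes (TBP and TAFs), 11 were more than 2-fold lower in spinal cord and 0 higher, with a median log2 ratio of -1.35, from -4.06 for *Taf7* to -0.13 for *Taf11*. Of 4 expressed TBP relatives and regulators, 2 were lower and 0 higher, from -2.46 for *Btaf1*, which removes TBP from DNA, to 0.84 for *Drap1*, a subunit of the repressor NC2. Among 27 pausing and elongation genes, 16 were lower and 1 higher, with a median of -1.16, from -3.59 for *Ell2* to 1.04 for *Tcea2*. The 16 genes for Pol II assembly and tail modification had 11 lower and 0 higher, from -3.25 for *Rpap1*, a polymerase assembly factor, to 0.76 for *Ctdspl*, a phosphatase. For the other polymerases, 7 of 8 genes of Pol I, some shared with Pol III, and 6 of 11 genes of Pol III alone were lower, with medians of -1.97 and -1.01 and 0 higher in each. The lowest were *Polr1b* at -3.69 and *Polr3g*, a subunit known from stem cells, at -4.78. These counts stand beside the 35.8% of all expressed genes that were lower, a share that the TBP relatives and Pol III genes exceeded by few genes. With both libraries scaled to the same sum, 24.6% of all expressed genes were lower, and so were 3 of 14 TFIID genes, 1 of 4 TBP relatives, 11 of 27 elongation genes, 5 of 16 assembly genes, 5 of 8 Pol I genes and 3 of 11 Pol III genes. The TFIID count thus depended most on the scaling. The medians of all 6 lists were below that of all expressed genes. Scaling to equal sums shifts every ratio alike, so it could not change this order.

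Along the EB course the same genes differed far less. In the libraries labelled WT, 0 of 29 expressed members were more than 2-fold different from ES cells on any of the 3 days, while 13.1% (day 2), 32.1% (day 4) and 38.1% (day 6) of all expressed genes were more than 2-fold different in either direction. In the libraries labelled KO, *Ercc2* alone differed, higher at day 2 and lower at day 6, which is 1, 0 and 1 of 29 on days 2, 4 and 6, against 14.2%, 25.4% and 26.4% of all expressed genes. These comparisons share their ES library and set values from separately normalized tables side by side. At day 6 WT the median log2 ratio over ES was 0.19 over the members and 0.20 over all expressed genes. The highest was *Polr2l* at 0.94, followed by *Polr2j* at 0.89 and *Gtf2b* at 0.85, and the lowest was *Polr2a* at -0.77. *Polr2l* was at 50.5 and 62.2 FPKM in ES cells, 49 and 51.6 at day 2, 56.1 and 41.9 at day 4, 96.7 and 76.3 at day 6, 18.6 and 38.3 in spinal column and 16.7 in spinal cord. *Polr2a* was the lowest Pol II subunit in EB day 6 WT, at 43.5 FPKM, and the *Polr2f* to *Polr2a* ratio, 3.60 in ES WT and 3.75 in day 4 WT, was 8.99 there. In TFIIH the highest ratio at day 6 WT was that of *Gtf2h5* at 0.65 and the lowest that of *Gtf2h2*, a core subunit, at -0.62. *Gtf2h2* was at 24.3 and 26.5 FPKM in ES cells, 25.1 and 23.3 at day 2, 21.5 and 16 at day 4, 15.8 and 15 at day 6, 6.98 and 10.3 in spinal column and 8.29 in spinal cord. In the kinase module *Ccnh* was highest at 0.29 and *Mnat1* lowest at -0.26. *Ccnh* was at 26.7 and 29.2 FPKM in ES cells, 38.4 and 34.9 at day 2, 35 and 26.4 at day 4, 32.5 and 30.9 at day 6, 10.2 and 15.6 in spinal column and 10.7 in spinal cord. In TFIIE the ratios at day 6 WT were -0.62 for *Gtf2e1* and -0.39 for *Gtf2e2*, and in TFIIF they were 0.36 for *Gtf2f1* and 0.15 for *Gtf2f2*. In the library labelled KO, *Gtf2f1* was the highest member at day 6, with 0.56, and *Polr2j* was the highest Pol II subunit, with 0.53.

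The ratio at day 6 was lower for longer transcripts. Across the 29 members the Spearman correlation of the WT day 6 over ES ratio with transcript length was -0.54, and across 11098 genes it was -0.23, both over genes of the same 2 libraries, which are not independent. All expressed genes, split by length into 4 classes of equal size, had a median log2 ratio of 0.52 in the shortest class and -0.26 in the longest. After subtraction of the median of genes of similar length, 1 member, *Gtf2h2*, was more than 2-fold lower, at -1.01. The members' median went from 0.19 to -0.15, and the part of length in their ratios was not tested further.

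The libraries labelled KO and WT were compared to ask whether the machinery itself differed with *Taf9b* genotype. In ES cells, 0 of 29 expressed members were past 2-fold, and 1.04% of all expressed genes were past it in either direction. The log2 ratios in ES cells ran from -0.39 for *Gtf2e2* to 0.30 for *Polr2l*. At day 2, 1 member was past 2-fold, *Ercc2*, with 2.5% of all expressed genes past it. At day 4, 0 members were higher and 0 lower, against 12.1% and 4.37% of all expressed genes. Among the 7164 genes above 10 FPKM, 456 were higher and 242 lower. The highest member at day 4 was *Gtf2h1*, a TFIIH core subunit that contacts activators, at 0.84 (33.4 FPKM in WT and 59.8 FPKM in KO), and it was again the highest at day 6, at 0.92 (25.1 and 47.4 FPKM). The median over the members at day 4 was -0.24, with 22 of 29 below 0, and that of all expressed genes was -0.03, with 52.3% below 0. Over the genes above 10 FPKM it was -0.08, with 57.6% below 0. The proliferation markers went from 1416 FPKM in WT to 982 in KO at day 4, with 8 of 8 lower, the pluripotency markers from 38.2 to 208 and the fibroblast markers from 4.12 to 30.3, and their part in the result was not tested. At day 6, 0 members were higher and 1 lower, against 10.5% and 9.88% of all expressed genes. Among the 7210 genes above 10 FPKM, 526 were higher and 552 lower. The neuron markers summed to 919 FPKM in the WT library at day 6 and 112 FPKM in the KO library, and the pluripotency markers to 376 and 949 FPKM. Over the 12 Pol II subunits the median log2 ratio at day 6 was -0.12, so the polymerase genes differed little between libraries that differed widely in these markers.

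*Ercc2* was the 1 member past 2-fold in the culture pairs. *Ercc2* was at 46.6 and 53.6 FPKM in ES cells, 75.9 and 164 at day 2, 45 and 46.5 at day 4, 68.1 and 11.8 at day 6, 6.86 and 5.41 in spinal column and 8.91 in spinal cord. The day 2 library labelled KO was the highest of all 11 and the day 6 library labelled KO the lowest of the 8 cultures. The log2 ratio of KO over WT was 1.11 at day 2 and 0.05 at day 4, but -2.52 at day 6. The *Ercc2* to *Ercc3* ratio was 3.30 and 6.81 at day 2, 2.20 and 2.27 at day 4, and 3.01 and 0.436 at day 6, while *Ercc3* alone lay between 20.5 and 27.7 FPKM in all 8 cultures. The locus given for *Ercc2*, chr7:19967388-19985205 on mm9, overlaps *Klc3* on the opposite strand, a kinesin light chain gene, and the counting is not stated to use strand, so its values are uncertain. *Klc3* was at 5.85 and 5.97 FPKM in ES cells, 11.8 and 11.2 at day 2, 3.57 and 8.07 at day 4, with 5.71 and 6.96 at day 6, and at 0.168 and 2.02 FPKM in spinal column. Among the cultures both genes were highest at day 2. In ES cells and at day 4 both were higher in the library labelled KO, whereas at day 2 and day 6 they went opposite ways between KO and WT. The part of shared reads in the *Ercc2* values was not tested. In all, the loci of 7 members overlap another protein-coding gene, the others being the 4 Pol II genes named above, *Gtf2f2* and *Cdk7*.

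**Figure D3:**
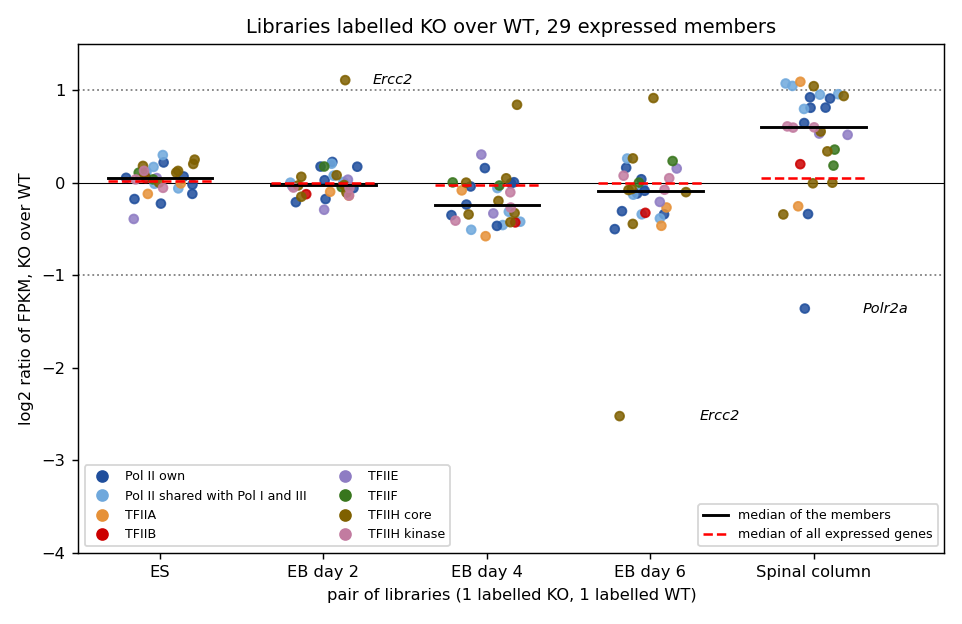
Points are the log2 ratios of FPKM of the 29 expressed genes, library labelled KO over library labelled WT, for the 5 pairs of libraries and coloured by complex, with black lines at the members' median and red dashed lines at the median of all expressed genes. In the 4 culture pairs all points but those of *Ercc2* at day 2 and day 6 lie within the dotted 2-fold lines, and in spinal column the members' median is 0.60 with *Polr2a* apart at -1.36.

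In spinal column, 4 of 29 expressed members were more than 2-fold higher in the library labelled KO and 1 was lower, against 8.97% and 8.56% of all expressed genes. The higher members were *Gtf2a2* (log2 ratio 1.09), *Gtf2h5* (1.04) and the shared subunits *Polr2k* (1.07) and *Polr2l* (1.05), and the lower one was *Polr2a* (-1.36). *Polr2k*, a small zinc-binding subunit, was at 71.6 and 68.7 FPKM in ES cells, 76.5 and 74.8 at day 2, 68.9 and 55.5 at day 4, 81.6 and 62.5 at day 6, 38.4 and 80.7 in spinal column and 24.1 in spinal cord. All 5 shared subunits were above 0, as were 53.1% of all expressed genes and 62.6% of those above 10 FPKM, and they lay between 0.80 for *Polr2h* and 1.07 for *Polr2k*. The longest Pol II genes went the other way, with *Polr2a* at 23.2 and 9.02 FPKM and *Polr2b* at 15.4 and 12.2 FPKM (log2 ratio -0.34). The *Polr2f* to *Polr2a* ratio was 4.23 in the WT library and 21.1 in the KO library.

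In spinal column, too, the ratio was lower for longer transcripts. The Spearman correlation of the KO over WT ratio in spinal column with transcript length was -0.59 across 29 members and -0.52 across 12173 genes, again over genes of the same 2 libraries. In the 4 length classes of all expressed genes the median went from 0.52 in the shortest through 0.19 and -0.06 to -0.45 in the longest. After subtraction of the median of genes of similar length, 0 members were past 2-fold, the members' median went from 0.60 to 0.21, and *Polr2a* had a ratio of -0.54. The summed FPKM of the KO library was 1.46 times that of the WT library, and with both scaled to the same sum the members' median was 0.05 and only *Polr2a* was past 2-fold, at -1.91. Over the 17396 loci above 0 in both libraries the sums differed by 1.54 times, and on that scale the members' median was -0.02 against -0.56 over all expressed genes. Of the 5 skeletal muscle markers, *Acta1*, *Ckm* and *Mylpf* carry the Cuffdiff mark HIDATA, given to loci with too many reads to estimate. *Acta1* is listed at 0 in both libraries, and *Ckm* and *Mylpf* are listed at 0 in the KO library and at 3407 and 6728 FPKM in the WT library, so the muscle markers were not summed. The other muscle markers went opposite ways, *Tnnt3* as given above and *Myh3* at 420 FPKM in WT and 218 in KO. Red blood cell markers summed to 5419 FPKM in the KO library and 2959 in the WT library, and neuron markers to 493 and 849. Proliferation markers summed to 118 FPKM in KO and 81.7 in WT, with 7 of 8 higher and a median log2 ratio of 0.55, near the members' 0.60. The log2 ratio of the summed FPKM of the 2 libraries was also 0.55, and scaling to equal sums subtracts it from both medians. The part of any of these markers in the result was not tested. In the KO over WT pairs of cultures the members' ratios had a correlation with length of -0.15 (ES), 0.05 (day 2), 0.59 (day 4) and 0.32 (day 6), while across all genes it lay between -0.13 and 0.05. At day 4 and day 6 the longer members thus tended to have the higher ratios, opposite to spinal column.

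**Figure D4:**
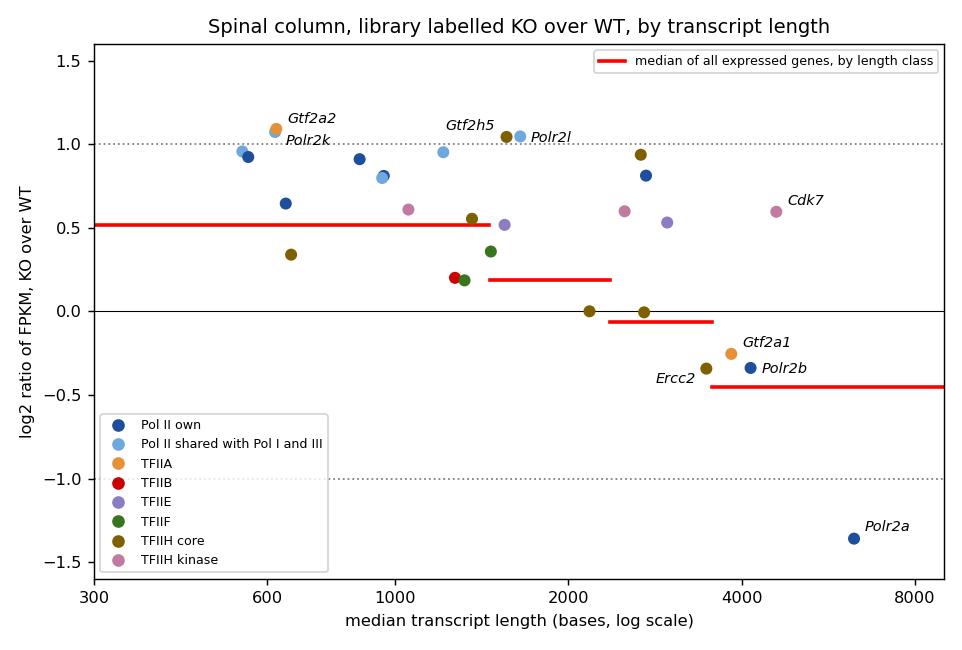
Points are the 29 expressed genes in spinal column, with the median length of their protein-coding transcripts in bases on a log axis and the log2 ratio of FPKM, library labelled KO over library labelled WT, on the other axis. Red bars are medians of all expressed genes in 4 length classes of equal size, which step down from 0.52 to -0.45, and the members descend with them to *Polr2a* at -1.36.

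Peaks of TAF9B and POL2 in motor neuron EBs were then read at the members' own start sites, counting a peak whose midpoint was within 500 bp of an annotated start of a protein-coding transcript. A TAF9B peak was at the start of 13 of 30 members, a POL2 peak at 22 and both at 10. Among the 10585 genes above 1 FPKM in EB day 6 WT with an annotated start, 31.3% had a TAF9B peak, 55.9% a POL2 peak and 23.5% both. The members thus held these peaks in 43.3%, 73.3% and 33.3% of cases. All members but *Gtf2a1l* were at 11.6 FPKM or more in EB day 6 WT, where the median over genes above 1 FPKM was 11.3 FPKM. No share was taken over genes of similar level, and the part of level in these shares was not tested. The 2 peak lists came from 1 library each, and the IgG control was not analysed here. By complex, TAF9B, POL2 and both were at 5, 10 and 4 of 12 Pol II genes, at 3, 5 and 3 of 8 genes for TFIIA, TFIIB, TFIIE and TFIIF, and at 5, 7 and 3 of 10 TFIIH genes. The start sites of 10 members lie within 1 kb of a protein-coding start on the opposite strand, so a peak there could belong to either gene. A peak at a start and a level are separate measures, and the score depends on the depth of each ChIP library.

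The members fell into 4 classes, shown here by 150 bases upstream of a start, in front of any transcribed sequence of the RefSeq model, printed 5′ to 3′ on the gene's strand. *Polr2a* and *Gtf2b* stand for the 10 genes with both peaks, *Polr2j* for the 12 with a POL2 peak alone, *Gtf2h4* for the 3 with a TAF9B peak alone and *Gtf2f2* for the 5 with neither. The sequences are from RefSeq promoters (GRCm38.p6), and each matched mm9 exactly once at the position given. Capitals mark matches, on either strand, to the TATA box letters TATAAA, to GGGCGG for a GC box, to the CCAAT box, and to the ETS core CCGGAAG or the NRF1 core GCATGCGC, and no 2 matches overlap in these windows.
*Polr2a* (chr11:69572136-69572285, reverse strand): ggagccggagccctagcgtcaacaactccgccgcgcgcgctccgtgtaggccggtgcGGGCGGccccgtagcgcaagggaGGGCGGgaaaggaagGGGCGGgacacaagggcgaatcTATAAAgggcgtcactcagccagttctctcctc
*Gtf2b* (chr3:142428061-142428210, forward strand): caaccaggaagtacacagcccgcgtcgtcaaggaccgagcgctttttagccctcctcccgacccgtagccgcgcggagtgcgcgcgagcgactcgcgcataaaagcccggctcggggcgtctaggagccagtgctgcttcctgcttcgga
*Polr2j* (chr5:136592411-136592560, forward strand): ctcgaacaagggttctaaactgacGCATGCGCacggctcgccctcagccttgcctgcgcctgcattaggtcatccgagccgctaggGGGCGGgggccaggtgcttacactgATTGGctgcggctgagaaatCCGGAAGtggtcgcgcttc
*Gtf2h4* (chr17:35810689-35810838, reverse strand): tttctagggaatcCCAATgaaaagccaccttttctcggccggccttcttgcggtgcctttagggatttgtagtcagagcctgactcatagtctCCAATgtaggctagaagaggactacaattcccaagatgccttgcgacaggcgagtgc
*Gtf2f2* (chr14:76410673-76410822, reverse strand): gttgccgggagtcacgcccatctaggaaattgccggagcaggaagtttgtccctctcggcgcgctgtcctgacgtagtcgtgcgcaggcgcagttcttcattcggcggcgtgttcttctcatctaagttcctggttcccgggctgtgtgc

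*Polr2a* had the highest POL2 score of the members at a start, 2225, against a median of 297 over the 22 members and of 134 over the whole list. The peak, chr11:69571378-69573361 on mm9, was 1984 bp wide, while the median POL2 peak was 686 bp wide. In its upstream sequence above, a TATA box letter match begins 33 bases before the start and 3 GC box matches begin 93, 70 and 55 bases before it. Its TAF9B peak was at the edge of the window, 497 bp from the start, with a score of 62.2, and a second TAF9B peak with a score of 126 was in an intron 3297 bp inside the gene. *Gtf2b* held both peaks over its start, TAF9B at chr3:142427980-142428319 with a score of 206 and POL2 at chr3:142427853-142428547 with a score of 502. None of the 5 motifs occurred in its 150 bases. *Gtf2h4* had the highest TAF9B score of the members, 309, at chr17:35810608-35810906, in the highest 2% of that list (percentile 98.1), and no POL2 peak at its start. The 14 TAF9B peaks at the starts of the 13 members had a median score of 101, against 83.3 over the list. The other genes with TAF9B alone, *Polr2l* and *Ercc2*, had low scores of 54.6 and 58.2.

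*Gtf2a1* had a POL2 peak with a score of 863 at its start and a second one of 1166 in an intron 1546 bp inside, where a TAF9B peak with a score of 239 also lay (chr12:92826745-92827081). That TAF9B peak was outside the window and did not count. *Polr2j*, whose upstream bases hold a GC box, a CCAAT box on the opposite strand, an ETS core and an NRF1 core, had a POL2 score of 419 and no TAF9B peak within 5 kb of its locus. Members with both peaks also included *Gtf2e1* (TAF9B 105, POL2 380.5), *Mnat1* (129 and 64.8) and *Cdk7* (82.0 and 109). *Gtf2a1l*, *Gtf2f2* and *Gtf2h2* had no peak of either kind within 5 kb of their loci, although *Gtf2f2* was at 42.5 FPKM in EB day 6 WT.

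**Figure D5:**
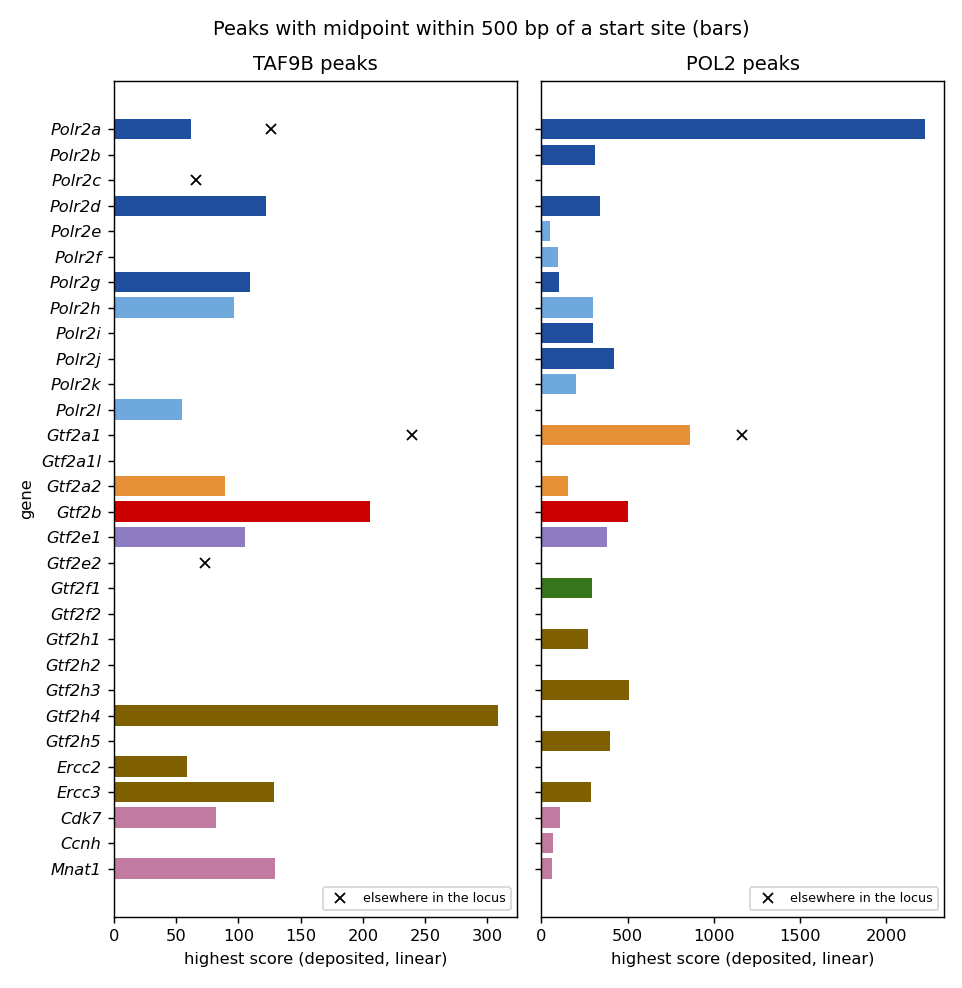
Bars give, for each of the 30 genes, the highest deposited score of a TAF9B peak (left) and of a POL2 peak (right) with its midpoint within 500 bp of a start, on linear axes that differ between panels, and crosses give the highest peak elsewhere in the locus. *Gtf2h4* and *Gtf2b* have the longest TAF9B bars, at 309 and 206, and *Polr2a* the longest POL2 bar, at 2225.

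The RefSeq promoter table held 27 promoters of 24 members, each 300 bases from 250 before to 50 after a start. TATAAA was in 14.8% of them and in 13.6% of all 32851 promoters, so it was about as frequent among these genes as elsewhere. GGGCGG was in 63.0% against 35.7%, CCGGAAG in 29.6% against 8.86%, GCATGCGC in 11.1% against 2.71%, and CCAAT in 25.9% against 37.4%. These are 17, 8, 3 and 7 of 27 promoters, and some members have more than 1 promoter among them. The promoters they are set against were not matched for level or for GC content. The median GC content was 58.7% in the members' promoters and 52.7% in all, with a median of 24 and 7 CpG dinucleotides. These motifs are rich in G and C except for TATAAA and CCAAT, and a match describes letters in the window, not a bound site.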

How the data were processed

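RNA-seq was measured in 11 libraries and ChIP-seq in 3, of which the IgG library was not analysed here. The authors mapped poly-A reads against RefSeq genes with TopHat and deposited FPKM values from Cuffdiff in 6 tables, each holding a pair of libraries. The tables also hold the authors' log2 fold changes and p-values, which were not used. Each peak's score is the MACS score the authors deposited after mapping to mm9 with Bowtie. Versions are not given in the sources used here. No value column of an unmapped sample was used.

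Of 23152 loci, 22766 were named through RefSeq accessions, 240 by position in GENCODE vM1 and 146 kept their accession. The highest locus of a symbol was kept. Log2 ratios were taken without a pseudocount for genes above 1 FPKM in at least 1 of 2 libraries, and a gene counted past 2-fold. With 1 library a group and 1 clone a genotype no test was made. Transcript length was the median over protein-coding GENCODE transcripts, and its effect was removed with medians of 20 length classes. All members may be named. Values in every library were given for those past 2-fold between KO and WT and for the highest and lowest of each complex, and other lists by counts and extremes. *Gtf2h1*, *Klc3*, *Polr2b*, *Ercc3* and the muscle markers were given further values after these were seen. The members and lists were chosen with earlier results of these data known. Alternatives were 1 FPKM added, no filter, centring, a 1.5-fold limit, summed loci, the other ES table, and other peak distances and scores. The functions were tested on simulated data. Python 3.11.15, pandas 2.3.3, numpy 2.4.6 and matplotlib 3.10.9 were used.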

Additional observations from a re-analysis of the deposited data

Results flagged for a closer look

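*Ercc2* moved past 2-fold in opposite directions in 2 pairs of libraries. Its log2 ratio of KO over WT was 1.11 at EB day 2 and -2.52 at EB day 6. Each value comes from 1 library against 1 other, and the difference between the days was not tested.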

How the results depend on the processing

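The 15 counts of members were computed again under 100 alternatives in all, and 79 stayed within 1.5 times their value. Among the 79 was every alternative for spinal cord over ES, which gave between 15 and 24 genes against 21. The 79 also include counts of 0 that stayed at 0. All 30 members have 1 locus, so summing loci could not change a count of members, and its unchanged values are among the 79 too. Removing the length trend and both ways of scaling to equal sums were chosen after seeing the data. With no 1 FPKM filter, *Gtf2a1l* was added, which gave 1 for KO over WT at day 4, 2 at day 6, 1 for WT day 2 over ES, 1 for WT day 4 over ES and 2 for KO day 6 over ES. With a 1.5-fold limit the counts were 1 for KO over WT at day 4, 2 at day 6 and 17 in spinal column, 2 for WT day 2, 10 for WT day 6, 3 for KO day 4 and 2 for KO day 6 over ES. Centring on the median gave 3 in spinal column. Removing the length trend gave 0 in spinal column, 1 for WT day 6 and 2 for KO day 6 over ES. Equal sums gave 1 in spinal column (also 1 with sums over loci above 0 in both), 3 for WT day 6 and 2 for KO day 6 over ES. With only peaks above the median score, 6 members had both peaks. In spinal cord over ES, equal sums took the TFIID genes lower from 11 to 3. Where no cause is named, the cause was not tested. The depth of the libraries is unknown, so no counting error could be given. No paired analysis was possible because no 2 groups share 2 replicate numbers. The 4 culture pairs are matched by day, but each genotype was 1 clone, so the days are not replicates of a genotype and no test across them was made.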
